A study of Mus musculus with 26 samples.

Results

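The 9 genes described here, members of the matrix metalloproteinase system, were followed through 5 drug experiments on the degenerating retina of rd10 mice. They are the secreted gelatinases Mmp2 and Mmp9, the membrane-anchored Mmp14 and Mmp15, the tissue inhibitors Timp1, Timp2, Timp3 and Timp4, and the secreted protease Adamts1. They were taken by symbol from a table of 37991 genes, and all 9 were found, each as 1 Ensembl identifier.

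The rd10 mouse carries a mutation of Pde6b, the catalytic beta subunit of the rod phosphodiesterase, and loses its rods after birth. All animals carried it, controls included. Whole retinas came from mice labelled B6.CXB1-Pde6brd10/Jrd10 that were injected intraperitoneally with an inhibitor, or with saline or diluent as control, from PN9 (postnatal day 9) to PN24. The inhibitors were DZNep (4 control and 2 treated libraries) and UNC1999 (3 and 3), both used in the study as inhibitors of the Polycomb methyltransferase EZH2. The paper calls UNC1999 the more specific of the 2. By its methods, UNC1999 was given in a mixture of DMSO, PEG, Tween and saline. Its controls are called saline in the paper's text and only diluent in a figure legend. UNC0642 (2 and 2) was directed at the methyltransferases EHMT1 and EHMT2, and Romidepsin (3 and 3) was an inhibitor of histone deacetylases. A last experiment compared rods sorted by FACS from saline-injected mice and from mice given GSK2879552, an LSD1 inhibitor (2 and 2). These were rd10 mice crossed to B6.Cg-Tg(Nrl-EGFP)1Asw/J, in which the rod-specific Nrl promoter drives EGFP. The number that closes the genotype label climbs by 1 from library to library from the second DZNep control to the last UNC1999 library, and the compound of UNC1999 replicates 2 and 3 is labelled UNC2000 and UNC2001. The titles, which name UNC1999 for all 3, were followed.

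The 22 retina libraries held 13732959 to 36354094 counted reads and the 4 rod libraries 7289460 to 19864491. No library was shared between comparisons. Values are CPM, that is counts scaled to a common library size (CPM of edgeR, with TMM factors computed within each experiment). Unless another test is named, changes are log2 fold changes of treated over control with their standard error (SE), tested by edgeR's quasi-likelihood F test with Benjamini-Hochberg adjustment over all genes of the comparison, and a gene passed at an adjusted p under 0.05. The replicates are labelled as biological. In whole retina, fewer cells of a type and less RNA per cell cannot be told apart.

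Matrix metalloproteinases are zinc-dependent enzymes, made as inactive precursors, that cut collagens, laminins and other matrix proteins as well as cell surface proteins. MMP14 sits in the plasma membrane and, with TIMP2 as a bridge, activates the precursor of MMP2. The TIMPs block the active site, and TIMP3 also inhibits many ADAM and ADAMTS proteases and is bound to the matrix, being a component of Bruch's membrane under the retinal pigment epithelium. In retina, Müller glia, microglia, vessels and pigment epithelium are known sources of these proteins, and TIMP1 is known as a gene induced by injury and cytokines.

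The promoters of the 3 genes that fell after DZNep and of Adamts1, which had the largest fitted increase after Romidepsin, are printed so that the sequence before each start can be compared. Promoters of 7 of the 9 genes were matched by symbol in a RefSeq table on GRCm38.p6, each from 250 bases before to 50 bases after the start. Mmp2 and Mmp9 were not matched. The 250 bases before the start are given 5′ to 3′ on the strand of the gene, with GC boxes (GGGCGG or its reverse complement, the motif bound by Sp1) in capitals.
Mmp14 promoter, chr14:54431348-54431597, plus strand: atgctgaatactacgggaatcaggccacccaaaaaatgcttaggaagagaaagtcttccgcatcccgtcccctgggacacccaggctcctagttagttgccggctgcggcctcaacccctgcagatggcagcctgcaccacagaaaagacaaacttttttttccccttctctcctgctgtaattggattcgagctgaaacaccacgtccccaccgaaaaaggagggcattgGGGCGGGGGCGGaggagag
Timp1 promoter, chrX:20869916-20870165, plus strand: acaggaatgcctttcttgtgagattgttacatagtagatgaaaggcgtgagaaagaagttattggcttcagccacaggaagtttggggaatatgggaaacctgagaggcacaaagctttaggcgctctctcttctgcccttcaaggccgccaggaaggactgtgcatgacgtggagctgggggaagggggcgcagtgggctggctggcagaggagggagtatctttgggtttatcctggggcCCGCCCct
Timp2 promoter, chr11:118355412-118355661, minus strand: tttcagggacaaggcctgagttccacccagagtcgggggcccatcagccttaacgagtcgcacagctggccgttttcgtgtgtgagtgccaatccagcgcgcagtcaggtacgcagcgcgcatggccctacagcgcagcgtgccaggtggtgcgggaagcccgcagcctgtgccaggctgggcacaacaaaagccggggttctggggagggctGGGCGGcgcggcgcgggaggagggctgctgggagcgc
Adamts1 promoter, chr16:85803114-85803363, minus strand: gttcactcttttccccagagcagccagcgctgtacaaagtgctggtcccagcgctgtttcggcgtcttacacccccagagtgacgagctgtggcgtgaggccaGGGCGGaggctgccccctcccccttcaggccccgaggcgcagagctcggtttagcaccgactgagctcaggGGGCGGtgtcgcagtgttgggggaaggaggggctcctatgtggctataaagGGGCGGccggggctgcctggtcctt
The GC box was present in the 300-base window of 6 of the 7 promoters, all but that of Timp4, against 35.7% of 32851 promoters of the table. It lay in a tandem pair before the start of Mmp14, once before Timp1 and Timp2 and at 3 places before Adamts1. On either strand, none of the 7 windows held TGANTCA, the letters of an AP-1 site, found in 7.81% of all promoters. None held TTCNNNGAA, the letters of a STAT site, found in 8.3%. The loose CArG-like pattern was in all 7 and in 73.3% of all promoters. These matches describe exact letters within the windows, and sites that depart from those letters were not searched.

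In control retinas, the 4 inhibitors spanned the widest range of levels, with Timp2 the most and Timp4 the least abundant of the 9 genes. Compared per kilobase of exon over the 12 control libraries, Timp2 (ENSMUSG00000017466, NCBIM37 chr11:118162383-118217054) had a median of 70.5 CPM per kb, with a range of 52.1 to 103. Timp3 (ENSMUSG00000020044, chr10:85763117-85812251) followed at 24.1 (21.2 to 33.8) and Mmp14 (ENSMUSG00000000957, chr14:55050441-55060095) at 22.1 (13.2 to 36.9). Mmp9 (ENSMUSG00000017737, chr2:164766280-164781350) had 14.4 CPM per kb (12.3 to 18.6), and Adamts1 (ENSMUSG00000022893, chr16:85794072-85803358) had 10.6 (7.85 to 22.3). Neighbours in this order overlapped from Timp3 to Mmp14, from Mmp14 to Mmp9 and from Mmp9 to Adamts1, so that these steps did not exceed the spread between libraries. Per kilobase of its longest transcript Timp3 had a median of 41.5 (36.6 to 58.3), and its range then met that of Mmp14 only at the edge.

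Timp1 (ENSMUSG00000001131, chrX:20447292-20451861) had a median of 10.4 CPM per kb and by far the widest spread, from 2.95 to 101. Mmp15 (ENSMUSG00000031790, chr8:97876168-97898193) stood at 8.41 (5.61 to 10.8) and Mmp2 (ENSMUSG00000031740, chr8:95351227-95377316) at 3.82 (2.74 to 6.54), and their ranges overlapped. Timp4 (ENSMUSG00000030317, chr6:115195634-115201867) had 0.631 (0.145 to 1.19) and lay below every other gene in every control retina. The scaling was done separately in each experiment, so that levels from different experiments carry that step as well as the spread between animals.

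Of the inhibitors, 3 lie inside synapsin genes of the opposite strand: Timp1 in Syn1, Timp3 in Syn3 and Timp4 in Syn2. Annotated exons of Timp3 and Syn3 share 1733 bases, while those of Timp1 and Syn1 and of Timp4 and Syn2 share 0. The retina libraries were made with a stranded kit, but the sources do not say whether strand was used in counting, and reads from the stretch shared by Timp3 and Syn3 could not be told apart if it was not.

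**Figure D1:**
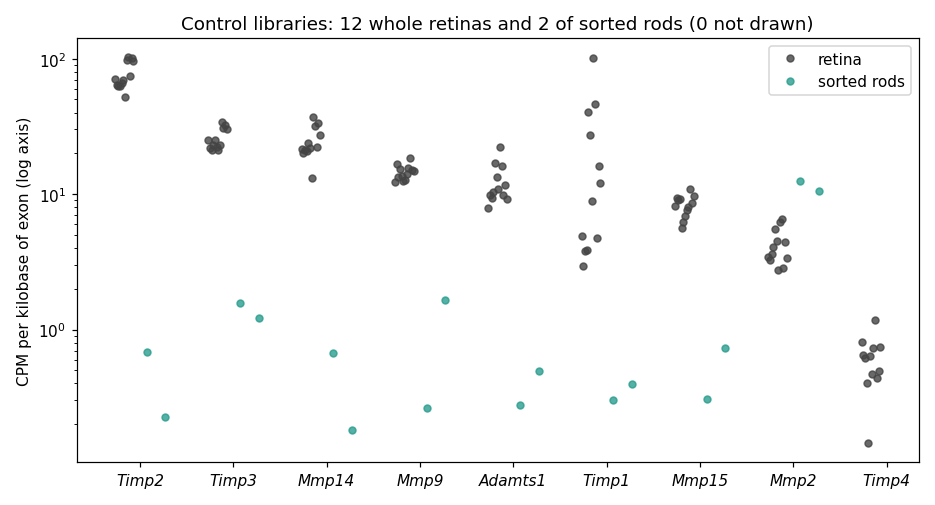
Level of each gene in CPM per kilobase of exon on a log axis, in the 12 control retina libraries (dark points) and the 2 control libraries of sorted rods (green points), in the order of the retina medians. Timp2 leads in retina at a median of 70.5, Timp1 spreads from 2.95 to 101, and Mmp2 alone has its rod points, at 10.5 and 12.5, above its retina points. Timp4, at 0 in both rod libraries, has no rod points.

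DZNep, which the study used as an EZH2 inhibitor, was compared with saline. After DZNep, Mmp14, Timp1 and Timp2 fell, and no member rose. All 3 lay below every control in both treated retinas. The gelatinases were also lower in both treated retinas than in all 4 controls, by a smaller amount that did not pass the test. Adamts1, Timp3, Timp4 and Mmp15 overlapped with the controls.

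Mmp14, the membrane-type activator of MMP2, had 56.0, 52.6, 55.1 and 53.6 CPM in the controls and 29.0 and 29.4 CPM after DZNep. The controls and the treated libraries each lay close together, with a wide gap between them. The log2 fold change was -0.90 (SE 0.06, adjusted p = 0.000196), from 54.3 ± 1.55 (SD, n = 4) to 29.2 ± 0.262 (SD, n = 2) CPM.

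Timp1 had 4.37, 2.62, 3.37 and 3.44 CPM in the controls, from 57 to 96 counts, and 1.40 and 1.19 CPM in the treated retinas, from 48 and 16 counts. Both treated values were under the lowest control. The log2 fold change was -1.38 (SE 0.25, adjusted p = 0.00593), which made it the single member past a 2-fold change. The treated values of 1.40 and 1.19 CPM were the lowest Timp1 levels among all libraries of the 4 retina experiments, controls included. With all 22 retina libraries in one fit, its change had an adjusted p of 0.388, and without treated replicate 1 it had 0.0578.

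Timp2, which pairs with MMP14 at the cell surface, had 276, 247, 247 and 247 CPM in the controls and 189 and 189 CPM in the treated retinas. Control replicate 1 stood above the other controls, and both treated libraries lay below all 4. The log2 fold change was -0.43 (SE 0.06, adjusted p = 0.00172).

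Of all 16477 genes tested, 9.72% passed as lower and 12.9% as higher, against 3 and 0 of the 9 members. Past a 2-fold change in either direction it was 1.71% of all genes against 1 member. The treated values lay below all controls for 5 members and for 21.5% of all genes. The likelihood ratio test called 3 members (21.5% of all genes) and DESeq2 called 4 (22.3%), adding Mmp9. The median log2 fold change of the 9 members was -0.33, beside -0.00057 for all genes.

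The gelatinases moved less. Mmp2 had 10.5, 9.94, 10.9 and 12.3 CPM in the controls and 9.10 and 7.89 CPM after DZNep, a log2 fold change of -0.35 (SE 0.12, adjusted p = 0.0664). Mmp9 had 43.5, 58.7, 47.7 and 54.0 CPM against 43.3 and 37.1 CPM, a log2 fold change of -0.33 (SE 0.12, adjusted p = 0.0735). The higher treated value of Mmp9 was just under the lowest control. Without control replicate 1, Mmp9 and Mmp15 also passed as lower, which brought the count of members to 5, beside 27.8% of all genes. Without treated replicate 1 it was 2, beside 6.38%.

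Mmp15, the second membrane-type enzyme, had a log2 fold change of -0.14 (SE 0.07, adjusted p = 0.169), Timp3 of -0.09 (SE 0.10, adjusted p = 0.548), Timp4 of -0.26 (SE 0.40, adjusted p = 0.674) and Adamts1 of 0.09 (SE 0.10, adjusted p = 0.527). The 2 treated libraries differed from each other in Timp3, at 154 and 197 CPM, with controls between 173 and 204 CPM. For Timp4 a treated library held as few as 5 counts.

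Markers of several retinal cell types moved in the same comparison. All 6 Müller glia markers fell, and their summed level went from 8940 to 9330 CPM in the controls to 6148 to 7010 CPM. Of the endothelium and pericyte markers, 3 of 8 fell (747 to 771 CPM in the controls, 587 to 621 CPM in the treated). Of the gliosis markers, 3 of 6 fell (764 to 1099 and 685 to 746 CPM), among them Cd44, which also stands on the list of docking receptors below. Of the microglia markers, 1 of 8 fell (108 to 203 and 92.3 to 96.3 CPM). All 8 rod markers rose (15605 to 26409 and 48475 to 49876 CPM). Of the pigment epithelium markers 4 of 8 rose and 1 fell (680 to 840 and 649 to 730 CPM), with 7 fitted changes above 0. The 1 that fell was Rlbp1, which is also on the Müller glia list, so that both sums hold its reads in every comparison. In addition, 4 of 8 inner neuron markers (2006 to 2246 and 1819 to 1844 CPM) and 2 of 6 cone markers (2314 to 2586 and 1917 to 2051 CPM) fell. None of these markers was at 0 throughout a group. Lens markers, at 1.49 CPM in one treated library, summed to 71.3 CPM in the other. The part of these markers in the changes of Mmp14, Timp1 and Timp2 was not tested.

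**Figure D2:**
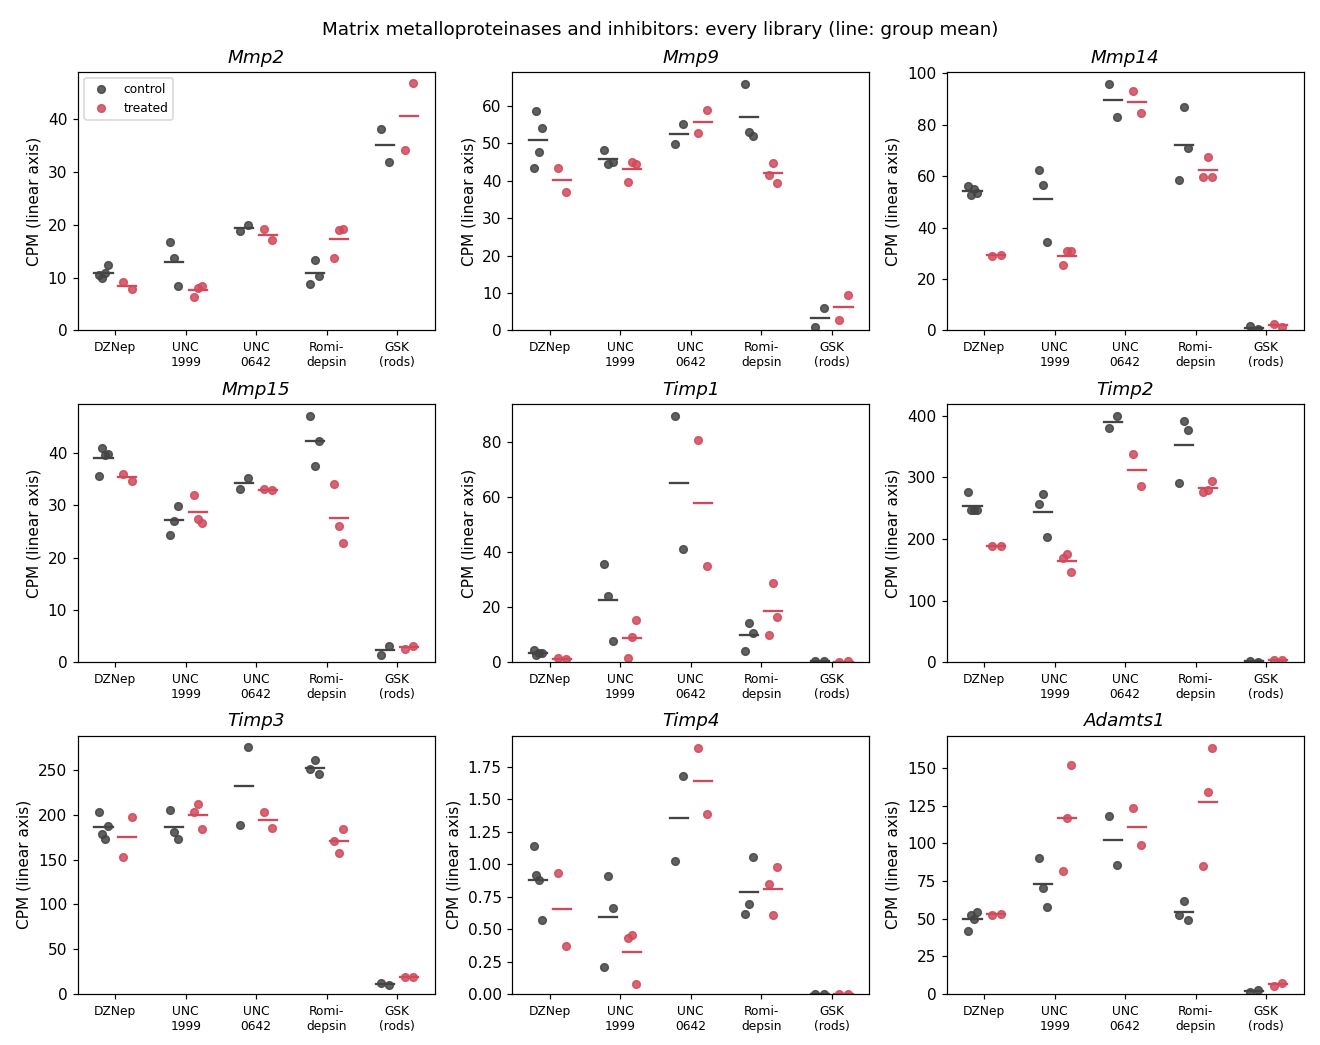
CPM of the 9 genes in every library on linear axes that start at 0, one panel per gene, with controls in dark and treated libraries in red for the 5 experiments, and a line at each group mean. Mmp14 after DZNep (29.0 and 29.4 against 52.6 to 56.0) and Adamts1 after Romidepsin (85 to 163 against 48.8 to 61.7) are set apart from their controls, and Timp1 in the UNC0642 controls ranges from 41.1 to 89.6.

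UNC1999 was the second compound that the study used as an EZH2 inhibitor. None of the 8 members tested passed, and Timp4 was too low to be tested. The lowest adjusted p-values belonged to Timp2 and Mmp14, which lay below the controls in all 3 treated retinas, and Adamts1 pointed the other way. Among all 15775 genes, 0.602% passed in either direction. At an unadjusted p under 0.05 there were 4 of the 8 members, 3 lower and 1 higher, beside 23.6% of all genes.

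Mmp14 had 62.4, 56.7 and 34.3 CPM in the controls and 25.3, 30.7 and 30.9 CPM after UNC1999, a log2 fold change of -0.82 (SE 0.21, adjusted p = 0.0757). Timp2 had 257, 273 and 203 CPM and then 169, 176 and 146 CPM, a log2 fold change of -0.58 (SE 0.12, adjusted p = 0.0582). In both genes control replicate 3 was the lowest of the controls and the nearest to the treated values. The treated libraries lay below all controls in these 2 members and in 13.6% of all genes.

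Mmp2 was likewise lowest in control replicate 3 among the controls, with 16.8, 13.7 and 8.33 CPM in the controls and 6.40, 8.05 and 8.41 CPM in the treated retinas. The groups overlapped there, and the log2 fold change was -0.76 (SE 0.25, adjusted p = 0.118). Timp1 varied most, with 35.9, 24.2 and 7.86 CPM in the controls and 1.68, 9.14 and 15.5 CPM after treatment. Its log2 fold change of -1.32 had an SE of 0.69 (adjusted p = 0.294), so that a fold change as large as the one after DZNep did not exceed the spread between these libraries.

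Adamts1, a secreted protease that cleaves proteoglycans such as versican and aggrecan, had 90.4, 70.5 and 57.9 CPM in the controls and 81.7, 117 and 152 CPM in the treated retinas. Treated replicate 1 lay within the controls, and the log2 fold change was 0.68 (SE 0.23, adjusted p = 0.130). Mmp9 (log2 fold change -0.09, SE 0.07), Mmp15 (0.08, SE 0.11) and Timp3 (0.10, SE 0.08) had small fitted changes, with adjusted p-values of 0.497, 0.705 and 0.507. Timp4 had 4, 25 and 14 counts in the controls and 7, 10 and 2 counts after UNC1999.

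The likelihood ratio test called 4 of the 8 members, Mmp2, Mmp14 and Timp2 as lower and Adamts1 as higher, and so did DESeq2; these tests called 10.4% and 9.41% of all genes. Without control replicate 3, Mmp2, Mmp14 and Timp2 passed as lower with adjusted p-values of 0.00607, 0.00168 and 0.00307, among 16.8% of all genes. In the same comparison 5 of 8 pigment epithelium markers rose (449 to 654 CPM in the controls, 835 to 1014 CPM in the treated). Of the other lists none passed, while the sums of endothelium and pericyte markers (557 to 620 and 356 to 462 CPM) and of microglia markers (110 to 174 and 67.3 to 85.9 CPM) lay lower and that of rod markers (16687 to 31879 and 43659 to 59272 CPM) higher in all treated libraries. Apart from 1 lens marker in the controls, none was at 0 throughout a group. Their part in the values of Mmp2, Mmp14, Timp2 and Adamts1 was not tested.

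The effects of these 2 compounds, DZNep and UNC1999, were also compared directly. In one fit of the 22 retina libraries, the difference between the DZNep and UNC1999 effects passed for 0 of the 9 members and for 0.00579% of 17274 genes. Mmp14 had -0.90 and -0.82, Timp1 -1.38 and -1.32 and Timp2 -0.43 and -0.58 as its own log2 fold changes, each against its own controls. The DZNep effect less the UNC1999 effect was -0.07 (SE 0.24) for Mmp14, 0.15 (SE 0.17) for Timp2 and -0.05 for Timp1, where an SE of 1.01 leaves a wide range of differences possible. The largest difference relative to its error was that of Adamts1, at -0.59 (SE 0.33, adjusted p = 0.620). The doses and schedules of the 2 compounds were not the same in the study.

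UNC0642 tested inhibition of EHMT1 and EHMT2. None of the 9 members passed, nor did any of the 16321 genes, so that the share of all genes was 0%. Timp2 was the only member with an unadjusted p under 0.05, beside 14.7% of all genes. The likelihood ratio test and DESeq2 called 0 members. The likelihood ratio test called 0.888% of all genes, and DESeq2 called 2.93% of the 5879 genes to which it gave an adjusted p.

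Timp2 had 381 and 400 CPM in the controls and 338 and 286 CPM after UNC0642, a log2 fold change of -0.32 (SE 0.09, adjusted p = 0.299). Mmp15 also lay below its controls in both treated libraries, at 33.1 and 32.9 CPM against 33.1 and 35.2 CPM, with a log2 fold change of -0.05 (SE 0.08). With 2 libraries a group, 25.2% of all genes lay below in this way. Of the marker lists none passed, and the summed Müller glia markers were lower in both treated retinas (6054 and 6957 CPM in the controls, 4199 and 4641 CPM in the treated), as were microglia markers (279 and 376, then 162 and 266 CPM), endothelium and pericyte markers (855 and 1015, then 757 and 769 CPM), cone markers (1585 and 1744, then 1235 and 1373 CPM) and inner neuron markers (1854 and 1905, then 1673 and 1826 CPM). Those of pigment epithelium (595 and 696, then 698 and 783 CPM) and rods (7416 and 7589, then 7708 and 11839 CPM) were higher. None of these markers was at 0 throughout a group, and their part in the values of Timp2 was not tested.

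The remaining members overlapped. Mmp14 had 95.8 and 83.2 CPM in the controls and 93.1 and 84.5 CPM in the treated retinas, a log2 fold change of -0.01 (SE 0.10), and Mmp9 had a change of 0.09 (SE 0.10). Mmp2 had -0.09 (SE 0.11), Timp3 -0.25 (SE 0.17), Timp4 0.31 (SE 0.37) and Adamts1 0.12 (SE 0.17). Their adjusted p-values ran from 0.485 to 0.969.

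The UNC0642 experiment had the highest Timp1 of the series. The controls held 89.6 and 41.1 CPM and the treated retinas 80.7 and 34.8 CPM. The libraries of each group differed from each other by more than the groups did, and the log2 fold change was -0.17 (SE 0.46, adjusted p = 0.874). The control means of Timp2 (390 CPM) and Mmp14 (89.5 CPM) were also the highest of the 4 retina experiments, while the summed rod markers were at their lowest (7416 and 7589 CPM in the 2 controls), against 13056 to 31879 CPM in the other control retinas. Gliosis markers summed to 2615 and 3015 CPM in these controls and to 764 to 2307 CPM in the others. Experiment and batch of animals cannot be told apart in these levels.

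Romidepsin tested inhibition of histone deacetylases. None of the 9 members passed, although 6 had an unadjusted p under 0.05, beside 19.4% of all genes, and the adjusted p of Adamts1 came to 0.0515. Adamts1 and Mmp2 were higher in every treated retina than in any control, and Mmp9, Mmp15 and Timp3 were lower. Among all 16049 genes 0.748% passed, and 26.0% did not overlap between the groups in either direction, against these 5 members.

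Adamts1 had 52.6, 61.7 and 48.8 CPM in the controls and 85, 134 and 163 CPM after Romidepsin. All treated values lay above the controls, with a wide spread among them. The log2 fold change was 1.23 (SE 0.22, adjusted p = 0.0515), from 54.4 ± 6.64 (SD, n = 3) to 128 ± 39.6 (SD, n = 3) CPM. Without treated replicate 1, the lowest of the treated, the change was 1.45 with an adjusted p of 0.0108, and without treated replicate 2 the adjusted p was 0.0450. Over the 6 fits that left out 1 library it ran from 0.0108 to 0.166.

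Timp3, the matrix-bound inhibitor, had 251, 262 and 246 CPM in the controls and 171, 157 and 184 CPM after Romidepsin. The 2 groups were each narrow and well apart, with a log2 fold change of -0.57 (SE 0.11, adjusted p = 0.0571). Mmp15 had 47.1, 37.5 and 42.2 CPM against 34.1, 26.0 and 22.8 CPM, a log2 fold change of -0.61 (SE 0.17, adjusted p = 0.104). Mmp9 had 65.9, 52.9 and 52.0 CPM against 41.5, 44.8 and 39.5 CPM, a log2 fold change of -0.44 (SE 0.13, adjusted p = 0.119).

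Mmp2 went the other way from its fellow gelatinase, with 8.69, 13.4 and 10.3 CPM in the controls and 13.7, 19.1 and 19.1 CPM in the treated retinas. The lowest treated value was close above the highest control, and the log2 fold change was 0.68 (SE 0.21, adjusted p = 0.129). Timp1 had 4.18, 14.4 and 10.7 CPM and then 10.1, 28.9 and 16.5 CPM, overlapping, with a log2 fold change of 0.91 (SE 0.47, adjusted p = 0.322). Timp2 had a change of -0.32 (SE 0.14, adjusted p = 0.248), Mmp14 of -0.21 (SE 0.15, adjusted p = 0.492) and Timp4 of 0.03 (SE 0.35, adjusted p = 0.971).

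The likelihood ratio test and DESeq2 each called 3 members, Adamts1 as higher and Mmp15 and Timp3 as lower, and 7.38% and 6.69% of all genes. With all 22 retina libraries in one fit, 5 members passed, Mmp2 and Adamts1 as higher and Mmp9, Mmp15 and Timp3 as lower, among 17.3% of all genes. Of the cell type markers 1 passed, the inner neuron marker Grm6. The summed Müller glia markers were lower in all treated retinas (8281 to 10272 CPM in the controls, 5549 to 6627 CPM after Romidepsin), as were endothelium and pericyte markers (795 to 988 and 592 to 639 CPM), pigment epithelium markers (665 to 773 and 395 to 514 CPM) and inner neuron markers (2044 to 2277 and 1508 to 1664 CPM). Blood markers (74.0 to 78.2 and 38.6 to 60.8 CPM) were lower in all treated retinas too. Rlbp1 counts in both the Müller glia and the pigment epithelium sum. Gliosis markers (842 to 1608 and 1534 to 2035 CPM, 6 of 6 fitted changes above 0) and rod markers (13056 to 21412 and 20461 to 28080 CPM, 8 of 8 above 0) had overlapping sums, and none of them passed. Microglia markers (204 to 310 and 156 to 214 CPM, 7 of 8 below 0) and cone markers (1447 to 2051 and 1163 to 1593 CPM, 5 of 6 below 0) overlapped as well, and none passed. A single lens marker was at 0 throughout the controls and no other marker was at 0 in either group. Their part in the values of the 9 genes was not tested.

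**Figure D3:**
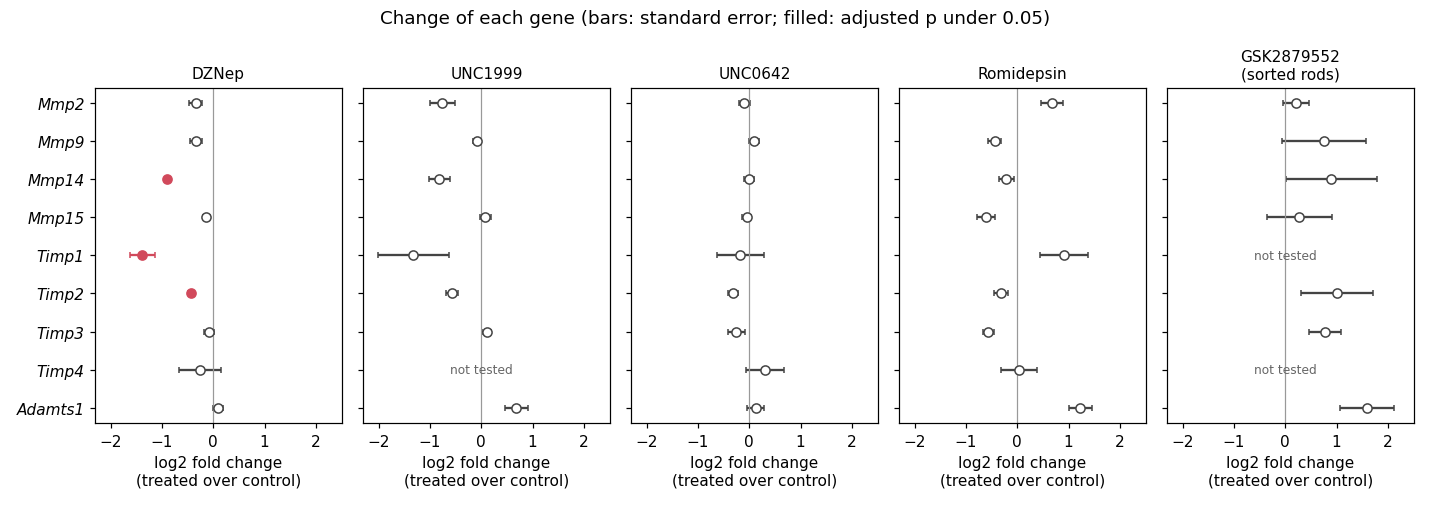
Log2 fold change of treated over control for the 9 genes in each of the 5 comparisons, with bars for the standard error and filled red points for an adjusted p under 0.05. Filled points appear only under DZNep, at Mmp14 (-0.90), Timp1 (-1.38) and Timp2 (-0.43), while Adamts1 stands at 1.23 under Romidepsin and at 1.59 with a wide bar in sorted rods.

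Sorted rods held little of most of these genes but more Mmp2 than whole retina. In the 4 rod libraries Mmp2 had 285 to 658 counts, or 32.0 to 46.9 CPM, while the 12 control retinas had 8.33 to 19.9 CPM. Timp4 apart, the other 7 members were below their control retina levels in every rod library. Mmp14 had 0.468 to 2.60 CPM in rods, Mmp15 1.34 to 3.16 CPM, Timp2 0.878 to 4.00 CPM and Timp3 9.89 to 19.4 CPM. Timp1 had 2 to 6 counts a library, close to the floor of 3 counts, and Timp4 had 0 in all 4, which allows up to 0.156 to 0.401 CPM.

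Rod markers dominated the sorted libraries. In the rod controls the 8 rod markers summed to 43973 and 68032 CPM and the Müller glia markers to 273 and 403 CPM, against 7416 to 31879 and 4048 to 10272 CPM in control retinas. Microglia markers were at 25.0 and 35.6 CPM and the pigment epithelium list had 5 of 8 genes at 0 in both controls, while cone markers stood at 2907 and 4346 CPM, above the 1401 to 2586 CPM of control retinas. Kit, genotype and sorting all differ between these libraries and those of whole retina and cannot be told apart from cell type, so the levels are set side by side with no test.

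GSK2879552 was compared with saline within the sorted rods. None of the 7 members tested passed, nor did any of 14478 genes (0%), and Timp1 and Timp4 were too low to be tested. All 7 fitted changes were above 0, with wide errors. Timp3 and Adamts1 had an unadjusted p under 0.05, as did 4.91% of all genes. The likelihood ratio test and DESeq2 called 0 members, and 0.490% and 0.352% of all genes.

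Adamts1 had 1.47 and 2.63 CPM in the controls and 5.30 and 7.47 CPM after GSK2879552, from 11 and 45 and then 102 and 74 counts. The log2 fold change was 1.59 (SE 0.53, adjusted p = 0.975). Timp3 had 12.7 and 9.89 CPM and then 19.4 and 18.9 CPM, a log2 fold change of 0.77 (SE 0.31, adjusted p = 0.987). Timp2 had 2.68 and 0.878 CPM and then 4.00 and 2.83 CPM, a change of 1.02 (SE 0.70, adjusted p = 0.987). These 3 genes were higher in both treated libraries than in both controls, as were 15.9% of all genes tested.

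Mmp2, the abundant member in rods, had 38.1 and 32.0 CPM in the controls and 34.2 and 46.9 CPM after GSK2879552, a log2 fold change of 0.21 (SE 0.26, adjusted p = 0.989). The treated values straddled the controls. Mmp9 had 0.936 and 5.85 CPM and then 2.65 and 9.59 CPM, and it differed more within each group than between them. Mmp14 and Mmp15 had log2 fold changes of 0.90 (SE 0.89) and 0.27 (SE 0.64). The summed markers of endothelium and pericytes went from 41.5 and 46.5 CPM in the controls to 62.4 and 65.8 CPM and those of Müller glia from 273 and 403 to 447 and 485 CPM, with 1 of 8 of the former at 0 in the controls and none of the latter. Those of pigment epithelium went from 36.5 and 46.1 to 50.7 and 58.6 CPM. Cone markers (2907 and 4346, then 1588 and 2117 CPM) and gliosis markers (347 and 451, then 235 and 253 CPM) were lower in both treated libraries. Their part in the values of Timp2, Timp3 and Adamts1 was not tested.

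The effects of 2 treatments were compared directly for the 6 pairs of retina experiments. Members passed in 1 pair, UNC1999 against Romidepsin, where 5.11% of 17274 genes passed. Mmp2 had log2 fold changes of -0.76 after UNC1999 and 0.68 after Romidepsin, neither of which passed, and the UNC1999 effect less the Romidepsin effect was -1.43 on the log2 scale (SE 0.29, adjusted p = 0.0102). For Mmp15 the difference was 0.69 (SE 0.17, adjusted p = 0.0282) and for Timp3 0.67 (SE 0.17, adjusted p = 0.0273). Their own log2 fold changes, none of which passed, were 0.08 and -0.61 for Mmp15 and 0.10 and -0.57 for Timp3, after UNC1999 and Romidepsin.

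The largest fitted difference, -2.24 for Timp1, had an SE of 0.85 (adjusted p = 0.132) and did not pass, nor did Mmp14 at -0.61 (SE 0.23, adjusted p = 0.133). Adamts1, which pointed upward under both compounds, had a difference of -0.55 (SE 0.32, adjusted p = 0.327). In the other 5 pairs 0 members passed, beside 0.00579% of all genes for DZNep against UNC1999, 0.0232% for DZNep against UNC0642, 0.289% for DZNep against Romidepsin, 0.0116% for UNC1999 against UNC0642 and 0.0174% for UNC0642 against Romidepsin. The Mmp2 difference kept an adjusted p under 0.05 in each fit that left out 1 library, between 0.000598 and 0.0344, whereas those of Mmp15 and Timp3 did not pass without any one of several libraries, with adjusted p-values up to 0.0919 and 0.0661.

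**Figure D4:**
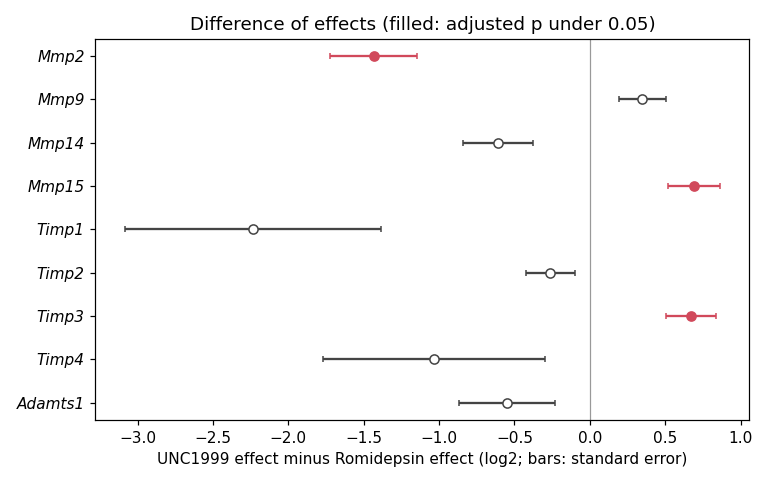
Difference between the UNC1999 and the Romidepsin effect on each of the 9 genes (log2, UNC1999 minus Romidepsin) in the fit of the 22 retina libraries, with bars for the standard error and filled red points for an adjusted p under 0.05. Mmp2 stands at -1.43 and Mmp15 and Timp3 at 0.69 and 0.67, and the bar of Timp1 at -2.24 is the widest.

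The wider protease system was followed through 94 further genes in 8 lists. Of those tested, 15 of 73 passed after DZNep, 4 higher and 11 lower, beside 22.7% of all genes. After Romidepsin 6 of 73 passed, all higher, beside 0.748%. After UNC1999 none of 72 passed, after UNC0642 none of 78 and after GSK2879552 none of 48. For UNC0642 it was 8 with the replicate number as a block (5 higher and 3 lower, beside 3.61% of all genes) and 12 with no filter on low counts (beside 4.55%). At no point was a list tested as a set.

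Among the relatives of the members, none of 7 other metalloproteinase genes tested passed after DZNep, with all 7 fitted changes below 0 and a median of -0.27. Of 16 other ADAMTS genes, 2 fell and 2 rose. Adamts5, an aggrecanase, fell from 75.2 ± 3.64 (SD, n = 4) to 47.2 ± 4.26 (SD, n = 2) CPM, a log2 fold change of -0.68 (SE 0.07, adjusted p = 0.000751). Adamts18 fell by 0.50 on the log2 scale (adjusted p = 0.00451), and Adamts3, a procollagen peptidase, rose by 0.34 (adjusted p = 0.0304). The low Adamts19 also passed as higher, from 0.663 ± 0.203 (SD, n = 4) to 1.5 ± 0.854 (SD, n = 2) CPM, with a wide spread between its treated libraries. Of 7 ADAM sheddases tested, Adam9 rose (log2 fold change 0.47, adjusted p = 0.00424) while Adam15 (-0.39, adjusted p = 0.00267) and Adam12 (-0.76, adjusted p = 0.0248) fell.

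Of 8 other inhibitors tested, 1 passed after DZNep. This was Reck, a membrane-anchored inhibitor of metalloproteinases, which fell from 21.3 ± 2.11 (SD, n = 4) to 16.7 ± 2.17 (SD, n = 2) CPM (log2 fold change -0.37, adjusted p = 0.0433). Of 7 activators, 3 fell: the proprotein convertases Pcsk6 (-0.46, adjusted p = 0.00118) and Pcsk5 (-0.65, adjusted p = 0.0258) and the plasminogen activator Plat (-0.58, adjusted p = 0.00183). Of 4 docking and uptake receptors, Cd44, a hyaluronan receptor that binds MMP9 and MMP14, fell from 54.4 ± 3.53 (SD, n = 4) to 22.9 ± 0.381 (SD, n = 2) CPM, a log2 fold change of -1.25 (SE 0.07, adjusted p = 0.000196). Of 16 matrix substrates, Ncan fell (-0.38, adjusted p = 0.00328) and Fn1 rose (0.20, adjusted p = 0.0251). Of 8 inducers tested, Fos alone passed, as lower (-0.34, adjusted p = 0.0348).

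After Romidepsin the inducers led. All 8 tested had fitted changes above 0, with a median of 1.67, and 5 passed as higher. Lif, a cytokine of the retinal injury response, had 2.69 to 5.34 CPM in the controls and 19.4 to 65.8 CPM in the treated retinas (log2 fold change 3.64, SE 0.47, adjusted p = 0.0277). Fosl1 and Junb, subunits of AP-1, rose by 3.18 (SE 0.44) and 2.28 (SE 0.31) on the log2 scale, both with an adjusted p of 0.0277. Junb had 33.2 to 62.9 CPM in the controls and 135 to 277 CPM in the treated. The other gene that passed was the matrix substrate Col1a1, from 2.03 to 2.74 CPM to 7.35 to 10.3 CPM (log2 fold change 1.80, SE 0.22, adjusted p = 0.0269). None of these 6 calls was kept without control replicate 2, control replicate 3 or treated replicate 3, when 0 genes of the lists and 0% of all genes passed.

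Timp1, the member past a 2-fold change, was compared with all other genes for likeness of pattern over the 22 retina libraries, each library taken relative to the mean of its own controls. The nearest were S100a6, a calcium-binding protein gene, with a mean absolute difference of 0.33 in log2 CPM, Nlrc5, a regulator of MHC class I genes, with 0.34, and Crispld2 with 0.35. The measure is a description and shares the libraries of the comparisons above.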

How the data were processed

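RNA-seq of 22 retina and 4 sorted rod libraries was used. The members and lists were chosen with earlier results of these data known. The authors trimmed reads with BBDuk, aligned them to NCBIM37 with HISAT2 2.2.1 and counted genes of Ensembl with HTSeq 0.11.2, whose use of strand is not given in the sources used here. The deposited values are raw counts per gene, with 0 rows that name no gene. Symbols and positions came from GENCODE M1 on the same build.

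Genes were filtered by filterByExpr, TMM-scaled and tested experiment by experiment in edgeR 4.0.16 (R 4.3.3) by the quasi-likelihood F test, whereas the study used the likelihood ratio test. Differences of effects came from one fit of the 22 retina libraries. DESeq2 1.42.0, other scalings and filters, a replicate block and leaving out each library were alternatives. Shares of all genes by DESeq2 are over the genes to which it gave an adjusted p. A count of 3 was taken as the floor, 0.0875 to 0.401 CPM over the libraries, which covers counting error only. The scripts were tested on simulated data. All 9 genes were named. From the other lists, up to 3 genes of smallest p among those that passed in each list and comparison were named. The other ADAMTS genes after DZNep were an exception, where all 4 that passed were named. For a member past a 2-fold change the 3 genes nearest in pattern were named. No 2 replicates were copies of each other.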

Additional observations from a re-analysis of the deposited data

Results flagged for a closer look

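Timp2 in the DZNep controls had 1 library, replicate 1 at 276 CPM, set off from the other 3 at 247 CPM by more than Dixon's 95% limit allows for a group of 4. With 9 such groups tested, chance flags about 1 in 20. Without that library the log2 fold change of Timp2 after DZNep was -0.39 (adjusted p = 0.000345).

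The changes of 3 genes differed between UNC1999 and Romidepsin in the test of the difference itself, by -1.43 for Mmp2, 0.69 for Mmp15 and 0.67 for Timp3 on the log2 scale (UNC1999 effect less Romidepsin effect). The libraries of the 2 experiments carry names with different prefixes, and the labels do not say whether they were prepared apart. Each effect was taken against the controls of its own experiment.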

How the results depend on the processing

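With 3 main calls after DZNep, 1 was past 2-fold, and leaving out a library gave 2 to 5 (5 without control replicate 1). After UNC1999 the count of 0 became 4 by the likelihood ratio test (10.4% of all genes), 4 by DESeq2 (9.41%), 2 with no filter (4.52%) and 3 in the fit of 22 retinas (8.37%), and 0 to 3 on leaving out a library (3 without control replicate 3, 16.8%). After Romidepsin it became 3, 3, 2 and 5 in the same order (7.38%, 6.69%, 2.86% and 17.3% of all genes) and 1 with at least 10 counts in every library (0.966%), and 0 to 2 on leaving out a library (2 without treated replicate 1, 3.10%, and 1 without treated replicate 2, 1.73%). After UNC0642 it became 1 with no filter, Timp2 (4.55%). After GSK2879552 it was 0 under every alternative run. The number of differences between treatments, counted over all 6 pairs, was 3. It became 5 by DESeq2 and 1 to 8 on leaving out a library. It was 8 without Romidepsin treated replicate 1 and 6 without UNC1999 control replicate 3. It was 1 without Romidepsin control replicate 1, Romidepsin treated replicate 2, UNC1999 control replicate 2 or UNC1999 treated replicate 1. For UNC1999 against Romidepsin the shares of all genes were 8.11% by DESeq2, and 11.8% and 9.88% in the fits that gave 8 and 6. In that pair Mmp9, Timp2, Timp4 and Adamts1 did not pass on leaving out any library, so part of the 8 and of the 6 lay in other pairs. The shares of all genes in those pairs are not given here. The causes were not tested.

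For the other lists, alternatives chosen after seeing the data gave 49 by the likelihood ratio test, 48 by DESeq2, 55 with no filter and 43 in the fit of 22 retinas against 21, and 13 to 37 on leaving out a library (37 without UNC1999 control replicate 3, 13 without DZNep treated replicate 1). These counts are summed over the comparisons, and the shares of all genes moved as well. In the same order the share became 10.4%, 9.41%, 4.52% and 8.37% after UNC1999, from 0.602%. After Romidepsin it became 7.38%, 6.69%, 2.86% and 17.3%, from 0.748%. After DZNep it became 21.5%, 22.3%, 16.0% and 7.72%, from 22.7%. After UNC0642 it became 0.888%, 2.93%, 4.55% and 0.0289%, from 0%. Without UNC1999 control replicate 3 the share after UNC1999 was 16.8%. On the longest transcript, Timp3 had a mean of 44.6 CPM per kb in place of 25.8 and remained second in order.

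Directions turned only on leaving out a library, for genes that had not passed. The log2 fold changes then ranged as follows. After DZNep, Timp3 ran from -0.28 to 0.086 and Timp4 from -1.21 to 0.10. After UNC1999, Mmp15 ran from -0.0074 to 0.15. After UNC0642, Mmp14 ran from -0.11 to 0.094, Timp1 from -0.92 to 0.50, Timp3 from -0.51 to 0.043, Timp4 from -0.022 to 0.68 and Adamts1 from -0.090 to 0.37. After Romidepsin, Timp4 ran from -0.12 to 0.31. After GSK2879552, Mmp2 ran from -0.030 to 0.43, Mmp9 from -0.41 to 2.67 and Mmp15 from -0.18 to 1.06.

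Same-numbered libraries did not deviate together in every pair, so the numbers were not taken to pair them. With the replicate block, 3 members passed after DZNep (8.59% of all genes), 0 after each other treatment, and 1 difference between treatments in place of 3 (1.37% for UNC1999 against Romidepsin). After UNC0642 the block gave 589 of all genes (3.61%) in place of 0, and 8 genes of the other lists in place of 0, 5 higher and 3 lower; its same-numbered libraries had a correlation of 0.23. In the rods the same-numbered libraries had a correlation of -0.13, and the crossed pairing, added after seeing the data, gave 0 members and 0 genes of the other lists. Depth limits Timp4 in all experiments and Timp1 in the rods. With 2 libraries in a group, a lone library left after omission is assumed to vary like the others.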
